A study of Mus musculus with 2 samples.

Results

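The genes described here are 32 stress and activity response genes, 21 immediate early genes and 11 heat shock genes, chosen by name from the 32285 mouse genes of the reference, and all 32 were present in it. They were followed in 2 single-cell libraries of brain tissue that held an implanted GL261 tumour, a mouse glioma line, collected on day 24. One library is labelled as C57BlL6 WT and the other as Cacna1H-/-, and the series' design text calls the second genotype Cav3.2KO. Cacna1h encodes the pore subunit of the T-type calcium channel Cav3.2, and the design text gives the genotype as that of the host mice, which all received glioma cells. The tissue was taken apart with a MACS neural dissociation kit, and RNA was counted with the 10x Genomics 3' v3.1 chemistry as unique molecular identifiers (UMIs, 1 per captured RNA molecule). The labels do not say how many mice a library pools, and with 1 library a label the differences between them have no replicate check.

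Immediate early genes are transcribed within minutes of a stimulus from factors already present in the cell, such as SRF with its ternary complex partners and CREB, without new protein. Many encode transcription factors, among them the Fos and Jun proteins that pair to form AP-1, and others encode feedback proteins that end the response. Heat shock genes encode chaperones that fold or rescue proteins, and their stress-inducible forms are switched on by heat shock factor HSF1. Both sets are known to respond to growth factors, inflammation and injury, and also to the handling of tissue before sequencing.

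Filtering left 3033 cells in the library labelled wild type and 6229 in the one labelled knockout. The median cell held 12179 and 10722 UMIs from 3554 and 3227 genes. The libraries shared 21 cell barcodes, 6 of them among kept cells. Cacna1h, the gene named by the label, had 8 UMIs (0.159 CPM) in the library labelled wild type and 145 (1.56 CPM) in the library labelled knockout. The 3' tags need not lie in the deleted stretch, so this count does not check the deletion, but it goes against the labels, and the libraries are therefore called by their labels throughout. The library labelled wild type also had no cell with Xist and without Y-linked UMIs in any of the 4 host classes compared, whereas the library labelled knockout had both kinds. Cells were grouped by markers that exclude the 32 genes, and 5 classes with at least 100 cells a library were compared, with 690 and 1078 tumour-like, 633 and 1502 T cell-like, 249 and 640 NK cell-like, 334 and 526 dendritic-like, and 738 and 1139 monocyte/macrophage-like cells. In each pair of values the library labelled wild type comes first. Levels are UMIs of a gene for every 1000000 UMIs of the same cells, written as CPM (counts scaled to that total), and intervals are exact 95% intervals that cover counting error only.

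Every cell group carried UMIs of both gene sets, and the immediate early share differed more between groups than the heat shock share. Their summed share of UMIs was 0.433% and 0.440% in tumour-like cells, 0.382% and 0.404% in T cell-like cells and 0.502% and 0.556% in NK cell-like cells. It was 0.704% and 0.607% in dendritic-like cells and 0.673% and 0.710% in monocyte/macrophage-like cells. Oligodendrocyte-like cells had the lowest share of the 14 groups described, 0.173% and 0.165%, in both libraries. The summed heat shock share was ordered otherwise, with tumour-like cells highest at 0.952% and 0.767% and monocyte/macrophage-like cells at 0.446% and 0.425%.

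**Figure D1:**
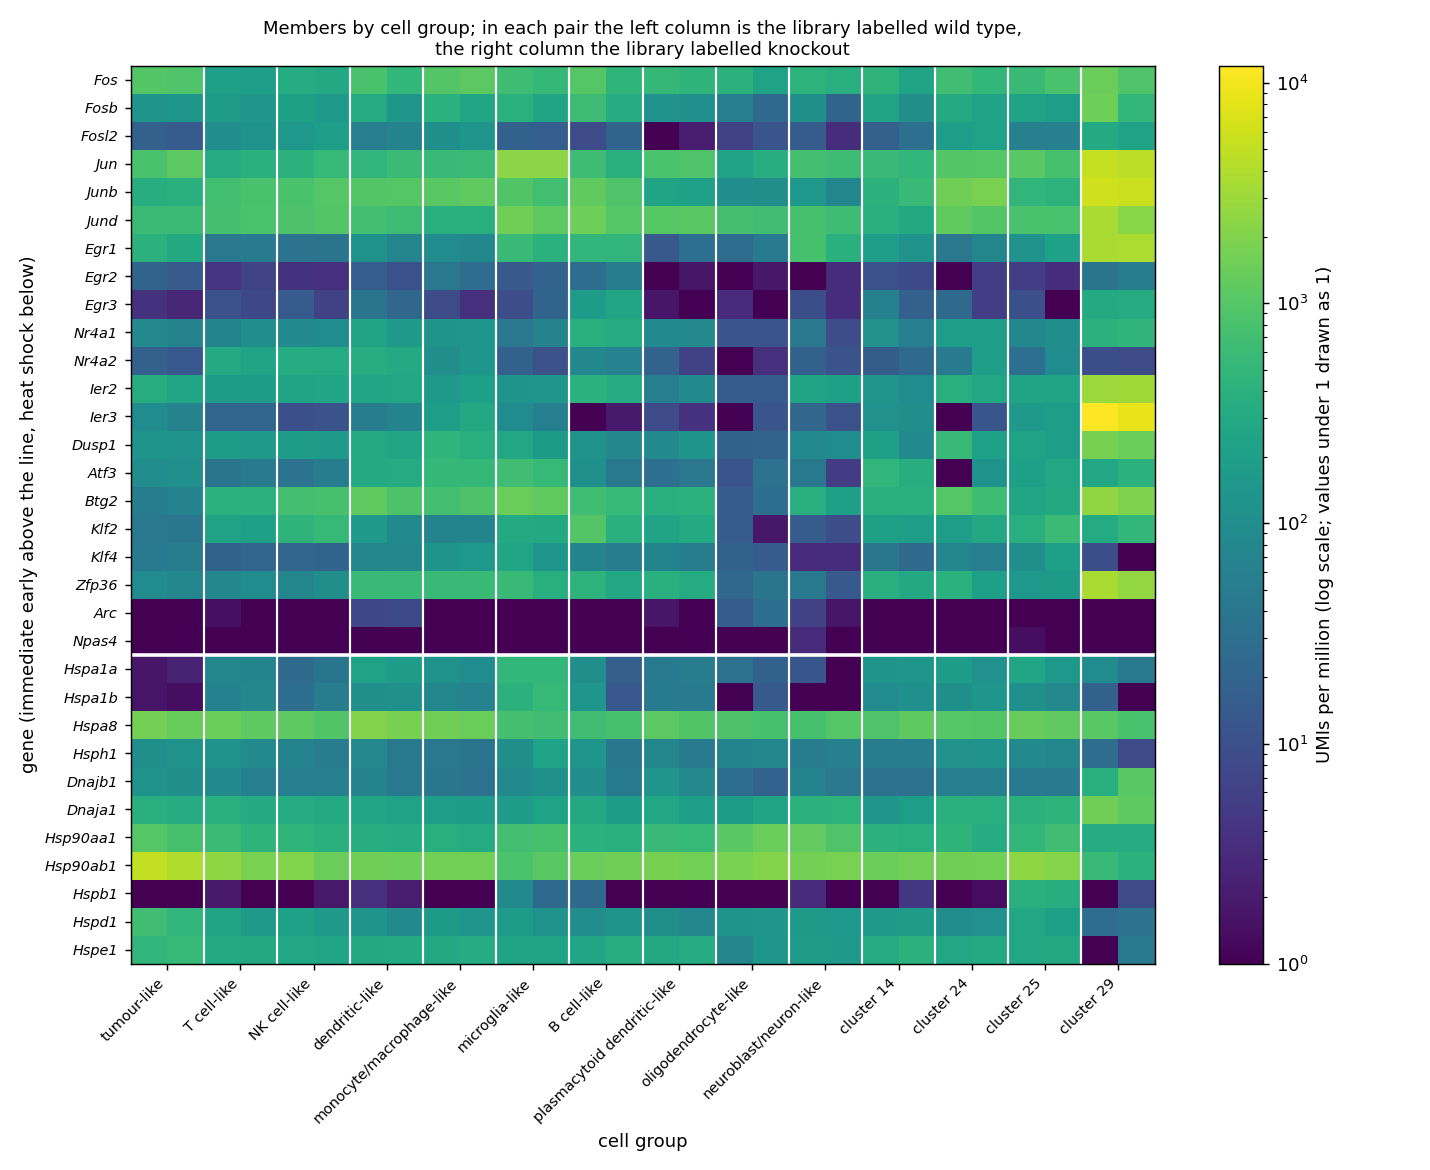
Levels of the 32 genes (vertical axis) in 14 cell groups (horizontal axis) as CPM on a log colour scale, the library labelled wild type at left and the library labelled knockout at right in each pair. The columns of cluster 29 are bright for most immediate early genes, Hspa1a and Hspa1b are dark in tumour-like cells at 1.76 and 2.43 and at 1.71 and 1.42 CPM, and Arc and Npas4 are dark nearly everywhere.

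A gene was called high in a class where it stood at least 2-fold above the median of the 5 compared classes in both libraries. Of the 30 members with enough UMIs, 14 were called high in at least 1 class, beside 46.2% of all 14679 genes tested, so the members as a set did not stand out from the background. Tumour-like cells held 4 such members, Egr1, Hsp90aa1, Hsp90ab1 and Hspd1, against 27.1% of all genes. NK cell-like cells held Klf2 alone (background 5.72%), and T cell-like cells held none (7.88%). Dendritic-like cells held 5, Egr3, Atf3, Zfp36, Arc and Hspa1a, where the background was 7.62%. Monocyte/macrophage-like cells held 6, Egr2, Ier3, Dusp1, Atf3, Klf4 and Zfp36, with a background of 8.6%, and all 6 are immediate early genes. Below, the highest and lowest class of a gene are those of the 5 compared classes unless other groups are named.

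Among the AP-1 genes, Fos, for which the Fos family is named, was highest in monocyte/macrophage-like cells at 968 and 1120.3 CPM. Tumour-like cells followed at 958 and 903, dendritic-like cells had 799.7 and 511, NK cell-like cells 338 and 289.8, and T cell-like cells 199.6 and 190.4. Fos was thus higher in each myeloid class and in tumour-like cells than in either lymphoid class, in both libraries. Jun, its principal partner, was highest in tumour-like cells at 810.1 and 1134 and lowest in T cell-like cells at 324 and 394. Junb, which can restrain Jun, ran the other way, with 343 and 389 in tumour-like cells and 1082 and 1218 in monocyte/macrophage-like cells. Jund, the more constantly expressed Jun protein, was lowest in monocyte/macrophage-like cells at 372 and 373 and highest in NK cell-like cells at 879.5 and 975. The 3 Jun genes were therefore lowest in 3 different classes, and each kept its lowest class in both libraries.

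Fosb, a Fos relative, was highest in monocyte/macrophage-like cells at 407 and 259 CPM, and its lowest class was tumour-like (129) in one library and T cell-like (142) in the other. Fosl2, another relative, was highest in NK cell-like cells at 151 and 188 and lowest in tumour-like cells at 17.9 and 15.1. Atf3, a stress-induced factor that can pair with Jun proteins, reached 529.8 and 514 in monocyte/macrophage-like cells and 309 and 322 in dendritic-like cells. The other 3 compared classes held at most 113 CPM of Atf3, with 35.2 in NK cell-like cells as the lowest under the wild type label and 49.98 in T cell-like cells under the knockout label.

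Of the zinc finger and nuclear receptor genes, Egr1, which is driven through SRF, was the one called high in tumour-like cells, with 419.8 and 299 CPM. Dendritic-like cells had 121 and 72.7, monocyte/macrophage-like cells 93.7 and 78.9, T cell-like cells 42.3 and 50.6, and NK cell-like cells 35.7 and 37.8. Tumour-like cells were thus above NK cell-like cells, the lowest class, by 11.8-fold and 7.92-fold. Egr2 was highest in monocyte/macrophage-like cells (43.0 and 28.6) and lowest in NK cell-like cells (3.91 and 3.57). Egr3 was highest in dendritic-like cells (37.4 and 22.1) and lowest in tumour-like cells (3.996 and 2.71). Outside the compared classes, B cell-like cells had Egr1 at 478 and 481 and Egr3 at 175 and 263. The unnamed cluster 29, described below, was the highest of the 14 groups for both, with Egr1 at 3637 and 3814 and Egr3 at 310 and 329. Egr genes are known to be induced by antigen receptor signalling in lymphocytes, which was not tested here.

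Nr4a1 and Nr4a2, orphan nuclear receptors induced by receptor signalling, had unlike patterns. Nr4a1 was highest in dendritic-like cells at 241 and 160.2 CPM and spanned only 3.47-fold and 2.41-fold over the 5 classes. Its lowest class was T cell-like (69.2) and tumour-like (66.5) in turn. Nr4a2 spanned 19.5-fold and 24.6-fold, with tumour-like cells lowest at 17.9 and 13.2. Dendritic-like cells had 348 and 310.0 of Nr4a2, NK cell-like cells 335 and 325 and T cell-like cells 309.8 and 244, so its highest class differed between the libraries. Among the compared classes Klf2, a factor of quiescent and recirculating lymphocytes, was highest in NK cell-like cells at 449.8 and 543 and lowest in tumour-like cells at 43.5 and 39.7. Klf4, a factor of monocytes, was highest among them in monocyte/macrophage-like cells at 129 and 148, and its lowest compared classes were T cell-like (18.6) and NK cell-like (20.8). Other groups stood higher. Under the wild type label Klf2 reached 961 in B cell-like cells and Klf4 261 in microglia-like cells. Under the knockout label the unnamed cluster 25 was highest for both, at 602 and 200.

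Among the feedback genes, Zfp36, whose protein destabilises cytokine mRNAs, was at 562 and 572 CPM in dendritic-like and 563 and 571 in monocyte/macrophage-like cells. It was between 75.2 and 103 in tumour-like, T cell-like and NK cell-like cells, so no compared class lay between the 2 levels. Dusp1, a phosphatase that switches off MAP kinases, was highest in monocyte/macrophage-like cells (469.7 and 364) and lowest in tumour-like cells (128 and 125). Ier3, a survival gene, spanned 18.5-fold and 26.8-fold, from 10.0 and 10.9 in NK cell-like cells to 185 and 292 in monocyte/macrophage-like cells. Btg2, an antiproliferative gene, was lowest in tumour-like cells at 52.1 and 67.8 and highest in dendritic-like cells at 1224 and 870.4, a span of 23.5-fold and 12.8-fold. Ier2 was the most even of this set, between 159 and 354 in one library and between 173 and 267 in the other. Its highest class was tumour-like in the first library and dendritic-like in the second, and its lowest was monocyte/macrophage-like and then T cell-like.

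Arc and Npas4, which neurons switch on with synaptic activity, were the members with the fewest UMIs summed over the 14 groups described. Npas4 had 7 and 6 UMIs in these groups, too few for a comparison between classes, and its highest compared class was T cell-like in both libraries. Arc had 52 and 124 UMIs, and its highest compared class was dendritic-like at 7.31 and 8.12 CPM. Within that class 35 and 60 of the Arc UMIs came from cluster 11, led by Ccl22 and Ccr7, at 41.3 and 26.2 CPM. The other dendritic-like clusters held at most 1 Arc UMI each in either library. Of the 14 groups, oligodendrocyte-like cells had the highest level of Arc, 15.1 and 29.2 CPM from 5 and 32 UMIs. In the 27 and 94 neuroblast/neuron-like cells Arc was at 6.26 and 1.69 and Npas4 at 3.13 and 0 CPM. A count of 0 over those 94 cells allows up to 2.54 CPM at 3 counts.

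The inducible HSP70 genes Hspa1a and Hspa1b were the members that separated tumour-like cells from the other compared classes most widely. Their proteins bind unfolded chains after heat or oxidative stress, and the genes lie beside each other on chromosome 17 of mm10, Hspa1b at 34956436 to 34959238 and Hspa1a at 34969190 to 34972156, both on the minus strand. The RefSeq windows before their start sites (GRCm38.p6) are printed with that of Hspb1, a small heat shock protein, to show how alike the pair is, with the heat shock element GAANNTTC in capitals.
Hspa1a, chr17:34972157-34972356, minus strand: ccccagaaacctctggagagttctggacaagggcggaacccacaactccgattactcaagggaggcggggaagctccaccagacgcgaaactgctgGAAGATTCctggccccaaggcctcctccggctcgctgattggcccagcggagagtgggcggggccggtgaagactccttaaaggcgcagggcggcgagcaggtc
Hspa1b, chr17:34959239-34959438, minus strand: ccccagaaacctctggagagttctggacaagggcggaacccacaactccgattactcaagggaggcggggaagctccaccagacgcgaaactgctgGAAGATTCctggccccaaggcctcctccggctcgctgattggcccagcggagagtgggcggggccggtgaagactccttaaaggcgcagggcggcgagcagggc
Hspb1, chr5:135887719-135887918, plus strand: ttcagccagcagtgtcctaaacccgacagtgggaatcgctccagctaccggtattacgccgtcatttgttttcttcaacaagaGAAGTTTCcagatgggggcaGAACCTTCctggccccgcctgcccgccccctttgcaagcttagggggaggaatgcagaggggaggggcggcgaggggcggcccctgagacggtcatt
The Hspa1a and Hspa1b windows were identical at 199 of 200 bases, and each held 1 such element, ending with 96 bases left before the start. The last 500 bases of their transcripts shared no run of 60 bases with each other or with another annotated gene.

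Tumour-like cells held 40 and 77 Hspa1a UMIs, or 1.76 (1.26 to 2.39) and 2.43 (1.92 to 3.03) CPM, and 39 and 45 Hspa1b UMIs, or 1.71 (1.22 to 2.34) and 1.42 (1.03 to 1.90) CPM. Dendritic-like cells had 222 and 176 of Hspa1a and 106 and 113 of Hspa1b, monocyte/macrophage-like cells 121 and 96.8 and then 73.8 and 64.4, and T cell-like cells 74.1 and 69.0 and then 62.3 and 76.2. NK cell-like cells were the lowest host class compared, at 25.7 and 38.4 of Hspa1a and 29.6 and 51.8 of Hspa1b. Tumour-like cells were thus below every other compared class for both genes in both libraries, by over 10-fold, and dendritic-like cells exceeded them for Hspa1a by 127-fold and 72.4-fold. After each cell was thinned to 2000 UMIs, 0.73% (0.24 to 1.70) and 0.48% (0.16 to 1.12) of tumour-like cells had an Hspa1a UMI, against 25.3% and 18.7% of dendritic-like cells and 10.4% and 10.1% of T cell-like cells. Without thinning the tumour-like shares were 4.06% and 4.64%, at medians of 30546 and 25918 UMIs per cell, the deepest of the compared classes. Thinning left out 8 and 43 tumour-like and 2 and 7 dendritic-like cells.

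The HSP90 genes were highest in tumour-like cells. Hsp90ab1, the constantly made cytosolic HSP90, was highest in tumour-like cells at 5089.6 and 3962 CPM and lay between 1383 and 2399 in the other compared classes. Among the compared classes its more inducible relative Hsp90aa1 was also highest there, at 997 and 772. The lowest compared classes for Hsp90aa1 were dendritic-like (347) and monocyte/macrophage-like (326) in turn. Outside them Hsp90aa1 reached 1249 in neuroblast/neuron-like cells under the wild type label. Under the knockout label it reached 1381 in oligodendrocyte-like cells, so tumour-like cells were not the highest of the 14 groups. Hspa8, the constitutive HSP70, was more even, from 1182 and 953 in NK cell-like cells to 2051 and 1721 in dendritic-like cells, and tumour-like cells lay inside that range at 1661 and 1354. The same tumour-like cells were therefore the highest compared class for both HSP90 genes and the lowest for both inducible HSP70 genes in each library.

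**Figure D2:**
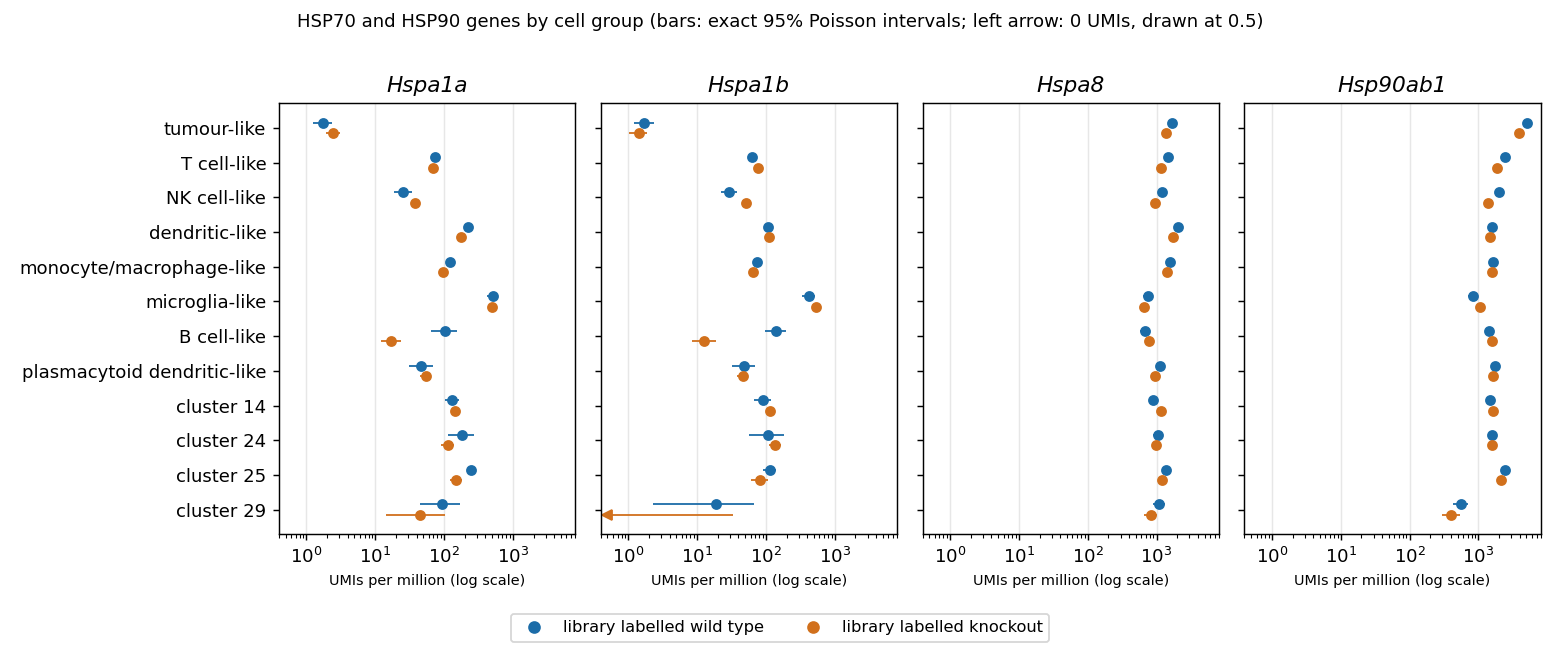
CPM (horizontal axis, log scale) of 4 chaperone genes by cell group (vertical axis), with a point for each library and exact 95% counting intervals. Tumour-like cells lie at 1.76 and 2.43 for Hspa1a but at 5089.6 and 3962 for Hsp90ab1, and microglia-like cells are highest for Hspa1a at 509 and 496. Oligodendrocyte-like and neuroblast/neuron-like cells are not drawn.

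The remaining chaperone genes were called high in no class apart from Hspd1. Hspd1 and Hspe1, which encode the mitochondrial chaperonin and its lid and start head to head on chromosome 1, were both highest in tumour-like cells, Hspd1 at 673 and 483 and Hspe1 at 486 and 539 CPM. Hspd1 was lowest in dendritic-like cells at 129 and 89.8, whereas Hspe1 spanned only 1.81-fold and 2.10-fold, with NK cell-like cells lowest at 269 and 257. Among the compared classes, the HSP70 co-chaperones Dnajb1 and Dnaja1 were highest in tumour-like cells (119.9 and 104 for Dnajb1, 381 and 331 for Dnaja1). Their lowest compared class was monocyte/macrophage-like (39.5 and 34.3, and 187 and 181). Hsph1, an exchange factor for HSP70, was also lowest there at 43.6 and 36.7, and highest in T cell-like cells (126) and tumour-like cells (124) in turn. Hspb1 was nearly absent from all compared classes, at most 3.55 CPM in dendritic-like cells, while cluster 25, led by the vascular genes Mgp, Cldn5 and Rgs5, held 384 and 346. Of the 60-base runs in the transcript ends of Hspa8, 66.8% also occurred in other annotated genes, 10 in number, and the same was true of 46.0% for Hspe1, 38.1% for Hspb1, 38.1% for Dnaja1, 26.6% for Hspd1, 23.2% for Hsp90aa1 and 1.64% for Hsp90ab1. Levels of these 7 genes depend on how such reads were counted and are uncertain to that extent, and the other 25 members shared no such run.

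Windows from 250 bases before to 50 bases after the start were found for 25 of the 32 members, and those of Egr1, Egr3, Ier2, Arc, Hsp90aa1, Hsp90ab1 and Hspa8 were not matched. On either strand, GAANNTTC occurred in 7 of 8 heat shock members (all but Dnajb1) and in 2 of 17 immediate early members, against 7.86% of 32851 windows of all genes. The second arrangement, TTCNNGAA, was found in 3 of 8 (Hsph1, Hspd1 and Hspe1) and in 1 of 17, against 8.52%, and can overlap the first. The 8 heat shock windows are not all separate sequences, so these counts overstate the number of independent promoters. Those of Hspa1a and Hspa1b are nearly identical. Hspd1 and Hspe1 start head to head, so the same sites may be counted for both. The cyclic AMP response element TGACGTCA was present in Btg2 and Dusp1 and in no heat shock member (1.79% of all windows), and its core TGACG, which it contains, in 12 of 17 and 5 of 8 (20.8%). The CArG box that binds SRF was found in Egr2 and Zfp36 (1.63%), and the AP-1 site TGANTCA in no member (7.81%). The bases before the starts of Fos and Btg2 are shown for the immediate early side, with TGACG in capitals in Fos and TGACGTCA in Btg2.
Fos, chr12:85473690-85473889, plus strand: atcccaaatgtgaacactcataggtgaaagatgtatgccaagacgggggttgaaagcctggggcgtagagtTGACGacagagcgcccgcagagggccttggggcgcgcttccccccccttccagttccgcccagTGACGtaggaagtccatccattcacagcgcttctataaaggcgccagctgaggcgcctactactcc
Btg2, chr1:134079156-134079355, minus strand: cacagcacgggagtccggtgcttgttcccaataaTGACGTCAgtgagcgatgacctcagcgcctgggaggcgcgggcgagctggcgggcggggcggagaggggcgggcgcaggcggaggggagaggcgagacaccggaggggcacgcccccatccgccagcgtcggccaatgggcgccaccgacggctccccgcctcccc
The stretch before Fos holds TGACG at 2 places, the nearer one ending 61 bases before the start, and Btg2 holds its full element 158 bases before the start. These are matches of letters and not measured binding, and Fos and Btg2 differed in class pattern, since Btg2 was lowest in tumour-like cells where Fos was high.

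Outside the compared classes, a small group stood far above all others for immediate early genes. Cluster 29, with 27 and 22 cells, was led by Il4, Hdc, Mcpt8 and Gata2, and it was left without a cell type name. Immediate early genes made up 4.65% and 3.79% of its UMIs, and the group next to it by that share, microglia-like cells, had 1.04% and 0.843%. Ier3 stood at 12413 and 8935 CPM, Junb at 6014 and 5565, Jun at 5347 and 4747, Egr1 at 3637 and 3814, Zfp36 at 3608 and 2658 and Ier2 at 2941 and 3156. All 27 and all 22 cells had an Egr1 UMI after thinning to 2000 UMIs. Not every member was high there, since Nr4a2 was at 9.40 and 8.89, Klf4 had 1 and 0 UMIs, and Hspa1b had 2 and 0 UMIs. Of the heat shock genes, Dnajb1 (376 and 1102) and Dnaja1 (1569 and 1182) were at their highest in this cluster. In contrast Hsp90ab1 (554 and 400.1), Hsp90aa1 (338 and 320), Hspd1 (28.2 and 35.6), Hspe1 (0 and 44.5) and Hsph1 (28.2 and 8.89) were at their lowest of the 14 groups. The cells were shallow, with medians of 3583 and 5138 UMIs.

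Microglia-like cells, 35 and 145 in number, had the highest levels of Hspa1a and Hspa1b, 509 and 496 and then 422 and 533 CPM. They also held Jun at 2348 and 2303, Btg2 at 1481 and 1226 and Atf3 at 674 and 544. Cluster 14, an unnamed group led by C1qa, Ccl12 and Trem2, carried 10 microglia markers as well but had Jun at 578 and 491, Hspa1a at 131 and 146 and an early gene share of 0.441% and 0.347%. Across single microglia-like cells the early and heat shock shares moved together, with Pearson r of 0.60 over 35 cells and 0.54 over 145, where both shares come from the same shallow cells (medians of 5912 and 6881 UMIs). In the compared classes the same r lay between -0.24 and 0.06.

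The early gene share also differed between clusters of a class. Of the tumour-like clusters, cluster 5, led by Serpina3n, Gpnmb and Col2a1, had an early gene share of 0.963% and 0.633%, and clusters 2, 8 and 19 had 0.480% and 0.422%, 0.409% and 0.360%, and 0.319% and 0.252%. Jun was at 2221 and 1779 CPM in cluster 5 and at 545 and 576 in cluster 19. The heat shock share was ordered the other way, 0.630% and 0.613% in cluster 5 and 1.08% and 0.887% in cluster 19. Monocyte/macrophage-like cells spanned more, from 1.21% and 1.12% in cluster 20, led by Chil3, and 1.05% and 0.990% in cluster 3, led by Arg1, down to 0.0619% and 0.0842% in cluster 27. In cluster 27, with 21 and 63 cells, Fos had 3 and 16 UMIs, Nr4a1 0 and 1, and Hspa1a 0 and 3, while its heat shock share of 0.465% and 0.480% stood beside 0.413% to 0.488% and 0.372% to 0.455% in the other 4 clusters of the class. Among T cell-like clusters Klf2 ran from 19.5 and 29.9 CPM in cluster 6, led by Ccl1 and Ifng, to 581 and 542 in cluster 4 and 391 and 698 in cluster 18, with Lef1 among the leading genes of cluster 4 and Cd28 among those of cluster 18.

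**Figure D3:**
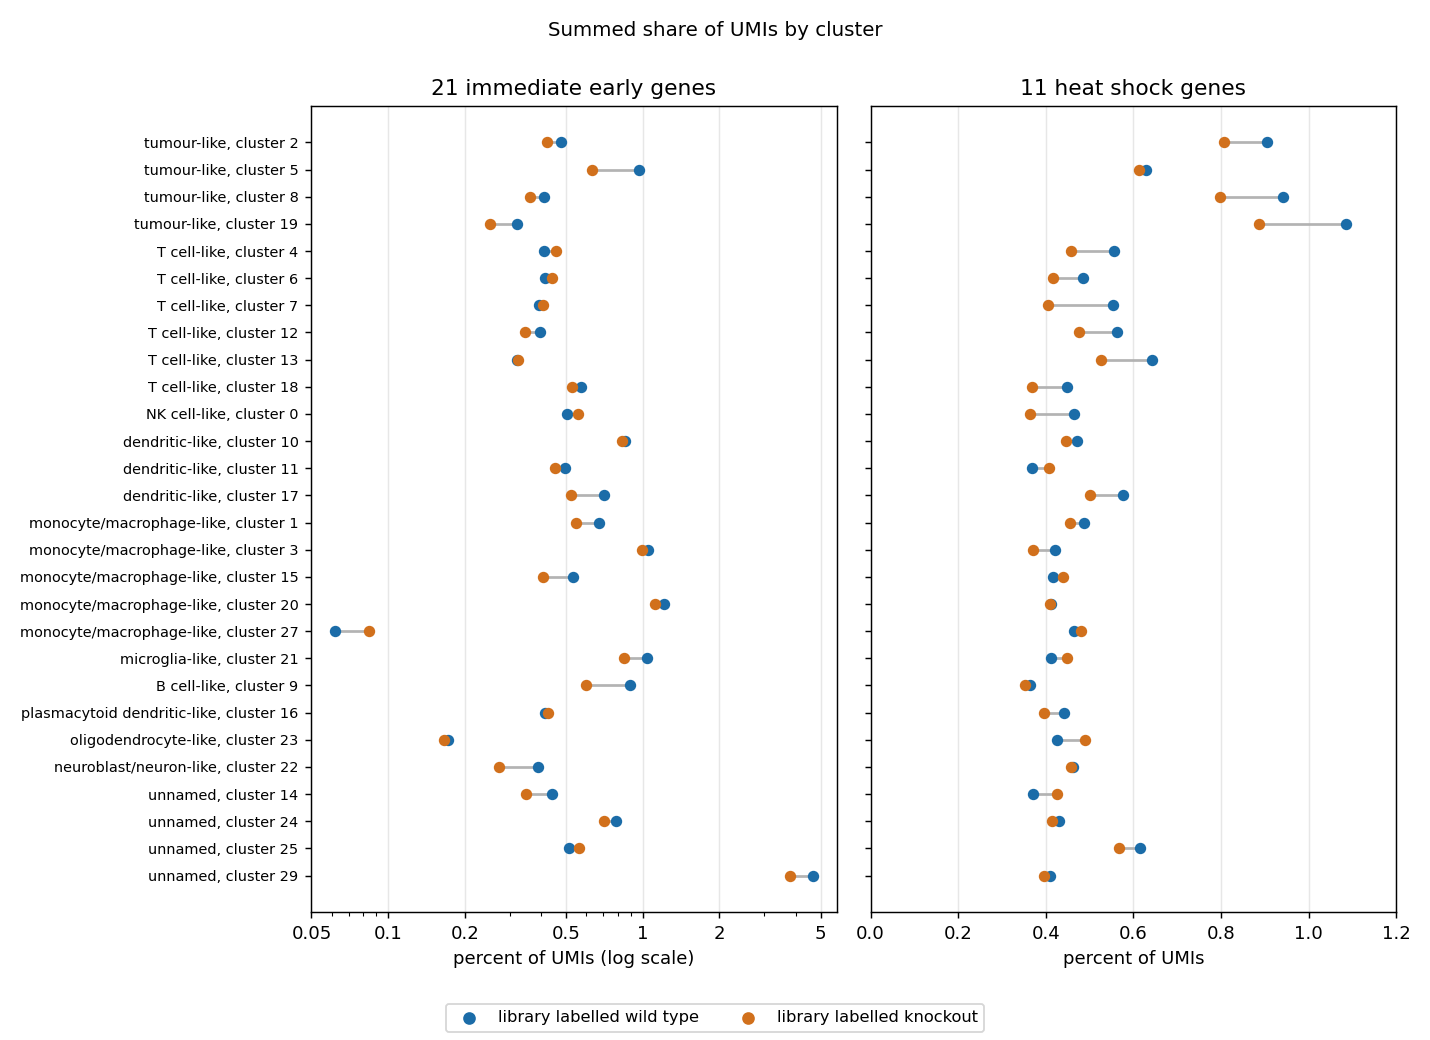
Summed share of UMIs (horizontal axis, percent) of the 21 immediate early genes (left, log scale) and the 11 heat shock genes (right) in each cluster with at least 20 cells a library (vertical axis), with 1 point a library. Cluster 29 lies at 4.65% and 3.79% and cluster 27 at 0.0619% and 0.0842% on the left, and tumour-like clusters 2, 8 and 19 hold the highest heat shock shares on the right.

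Within single cells, Fos and Jun were found together most clearly in tumour-like cells. After thinning to 2000 UMIs, 76.0% and 86.5% of tumour-like cells with a Fos UMI also had Jun, against 49.2% and 65.7% of those without Fos, and r was 0.57 over 682 cells and 0.56 over 1035. In T cell-like cells r for the same pair was 0.15 and 0.13, and in dendritic-like cells 0.09 and 0.10. Hspa1a and Hspa1b went together in monocyte/macrophage-like cells, where 34.9% and 41.8% of Hspa1a-positive cells had Hspa1b against 5.19% and 4.47% of the others, with r of 0.46 over 726 cells and 0.56 over 1119. In T cell-like cells the corresponding shares were 45.3% and 43.0% against 6.72% and 9.02%. Fos and Hspa8, one gene of each set, had r between -0.13 and 0.16 in the 5 classes. These correlations are across cells of 1 library each, which share depth and preparation.

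Between the libraries, the heat shock genes were mostly a little lower under the knockout label, and the immediate early genes went both ways. A ratio was read where a class held at least 100 UMIs of the gene over both libraries, and was called at 1.5-fold by size alone, since 1 library a label allows no test. For heat shock members 49 pairs of gene and class could be read, 39 of them below 0 on the log2 scale, with 1 called higher and 2 called lower. Over all genes, 47492 pairs could be read, 22671 of them above 0, with 3300 called higher and 2774 lower. For the heat shock members the class medians of the log2 ratios were -0.20 in tumour-like, -0.34 in T cell-like and -0.18 in NK cell-like cells. They were -0.20 in dendritic-like and -0.20 in monocyte/macrophage-like cells, beside all-gene medians between -0.05 and 0.03. For immediate early members 92 pairs could be read, 52 above 0, with 2 called higher and 10 called lower, and class medians of -0.13, 0.17, 0.13, -0.19 and 0.07 in the same order.

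In tumour-like cells no member was called either way, where 9.95% of all genes were called higher and 7.43% lower. In T cell-like cells Egr2 was called higher (background 4.34%) and Dnajb1 lower (3.4%). In NK cell-like cells Hspa1b was called higher (4.94%) and no member lower (3.94%). In dendritic-like cells no member was called higher (7.92%) and 8 were called lower (7.66%), namely Fosb, Hsph1, Klf2, Egr3, Egr1, Fos, Egr2 and Nr4a1. In monocyte/macrophage-like cells Ier3 was called higher (6.34%) and Egr3, Fosb and Egr2 lower (6.03%). The members called lower were 8 of 29 read in dendritic-like cells, a share above that of all genes. In monocyte/macrophage-like cells they were 3 of 29, a small count. In the other classes and for members called higher the counts were 0 or 1. With only Y-linked host cells, a setting that kept all tumour-like cells, Fosb (-1.06) and Nr4a1 (-0.64) stayed past 1.5-fold lower in dendritic-like cells. Fos (-0.50), Klf2 (-0.48), Egr1 (-0.33), Egr2 (-0.07, under 100 UMIs) and Hsph1 (-0.02) were within it, and Egr3 was past it the other way (0.98). In Y-linked NK cell-like cells, only 191 and 76 in number, Nr4a1 (1.34), Klf2 (0.96), Zfp36 (0.93), Junb (0.80), Dusp1 (0.75) and Fosl2 (0.71) were past it higher. Hspd1 (-0.99) and Hsp90ab1 (-0.69) were past it lower there.

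**Figure D4:**
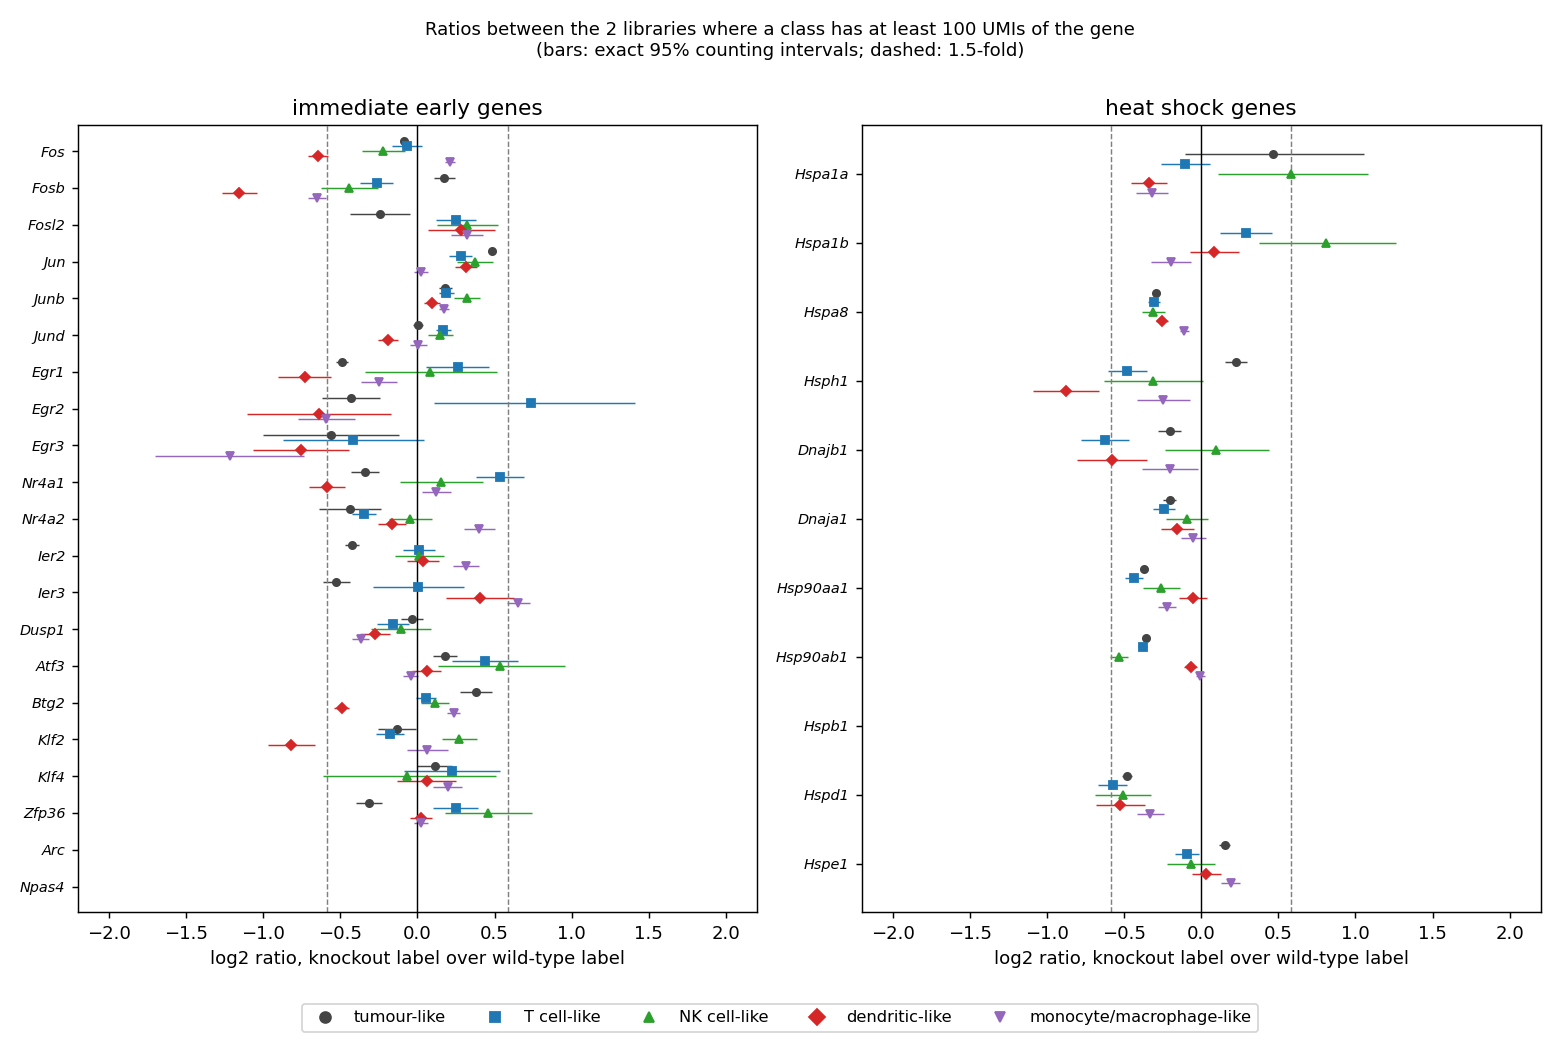
Log2 ratio of the knockout label over the wild type label (horizontal axis) for each gene (vertical axis) and compared class (symbols), with exact 95% counting intervals and dashed lines at 1.5-fold. Most heat shock points lie left of 0, with 39 of 49 below it, and the dendritic-like values of Fosb (-1.16) and Hsph1 (-0.88) and the monocyte/macrophage-like value of Egr3 (-1.21) lie farthest left.

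Some genes held 1 direction in all classes read. Hsp90aa1, Hsp90ab1, Hspa8, Hspd1 and Dnaja1 were lower under the knockout label in 5 of 5 classes, with Hspd1 between -0.58 and -0.33 and Hsp90ab1 between -0.53 and -0.01, the last value, in monocyte/macrophage-like cells, being near 0. With only Y-linked host cells, Dnaja1 was instead higher in monocyte/macrophage-like (0.30), NK cell-like (0.22) and dendritic-like cells (0.07), Hspa8 (0.15) and Hsp90ab1 (0.09) in monocyte/macrophage-like cells and Hsp90aa1 in dendritic-like cells (0.02), while Hspd1 was lower in 5 of 5. Hspe1, the partner of Hspd1, did not share this and was between -0.09 and 0.19. Jun (0.02 to 0.49) and Junb (0.10 to 0.32) were higher in 5 of 5 classes, and Dusp1 (-0.37 to -0.03) was lower in 5 of 5. Inside clusters Junb was nevertheless lower in 3 of 4 tumour-like, 4 of 5 monocyte/macrophage-like and 2 of 3 dendritic-like clusters, and Jun was at -0.02 in tumour-like cells when clusters had equal weight in both libraries. With only Y-linked host cells, Junb was at -0.24 in dendritic-like cells, and Dusp1 was at 0.75 in NK cell-like and 0.03 in monocyte/macrophage-like cells.

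In dendritic-like cells Fosb was at 322 and 145 CPM, a log2 ratio of -1.16 (-1.27 to -1.04). Hsph1 was at 82.9 and 45.2 there (-0.88, -1.09 to -0.66) and Klf2 at 159 and 90.5 (-0.82, -0.97 to -0.67). With only Y-linked host cells Hsph1 was at 85.7 and 84.4 (-0.02) and Klf2 at -0.48, and with clusters weighted alike they were at -0.52 and -0.34, all within 1.5-fold. The largest ratios in that class were those of Ier3 (0.40), Jun (0.31) and Fosl2 (0.28, and -0.43 with only Y-linked host cells), all under 1.5-fold. In monocyte/macrophage-like cells Ier3 was at 185 and 292, a log2 ratio of 0.66 (0.58 to 0.73), followed by Nr4a2 (0.40) and Fosl2 (0.32). With clusters weighted alike these 3 ratios were -0.15, -0.16 and -0.03, and Nr4a2 and Fosl2 were each lower under the knockout label in 3 of 4 clusters. With only Y-linked host cells the same 3 ratios moved the other way, to 0.91, 0.69 and 0.47. At the other end Egr3 had 94 and 62 UMIs (-1.21, -1.70 to -0.74), Fosb was at 407 and 259 CPM (-0.65, -0.71 to -0.59) and Egr2 at 43.0 and 28.6 (-0.59, -0.77 to -0.41). Egr3 depended on the cells used: with only Y-linked host cells it was at 38.9 and 76.9 CPM in dendritic-like cells (0.98) and at -0.31 in monocyte/macrophage-like cells, where Fosb was at -0.49.

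In T cell-like cells Egr2 had 26 and 112 UMIs, a log2 ratio of 0.74 (0.11 to 1.41), Nr4a1 was at 69.2 and 100.3 CPM (0.53) and Atf3 at 37.0 and 49.98 (0.44). Dnajb1 was at 87.7 and 56.9 (-0.63, -0.78 to -0.47, and -0.41 with clusters weighted alike), Hspd1 at 239 and 160.3 (-0.58) and Hsph1 at 126 and 90.2 (-0.48), so the 3 smallest ratios of this class were all heat shock genes. In NK cell-like cells Hspa1b had 53 and 247 UMIs, a ratio of 0.81 (0.38 to 1.27), Hspa1a 46 and 183 (0.58, 0.11 to 1.08) and Atf3 63 and 243 (0.54). The smallest were Hsp90ab1 (-0.53), Hspd1 (-0.51) and Fosb (-0.44). In Y-linked NK cell-like cells alone Hspa1a was at 27.1 and 18.5 CPM (-0.55) and Hspa1b at 26.4 and 32.9 (0.31), both under 100 UMIs. In tumour-like cells the largest ratios were Jun (0.49), Hspa1a (0.47, -0.10 to 1.06) and Btg2 (0.38), and the smallest Egr3 (-0.56), Ier3 (-0.53) and Egr1 (-0.49). With clusters weighted alike Jun was at -0.02 and Btg2 at -0.37, with Btg2 lower in 3 of 4 clusters, and with the marker gate alone Hspa1a was at -0.40. In B cell-like cells, not among the compared classes, Hspa1b was at 141 (97.0 to 198) and 12.8 (8.37 to 18.8) CPM and Hspa1a at 103 and 17.2, from 33 and 26 and from 24 and 35 UMIs. Only 13.3% and 4.81% of these 60 and 270 cells had an Hspa1b UMI, so few cells carried the difference.

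The class ratios and the ratios inside clusters did not always point the same way. Different clusters held most cells of 2 classes in the 2 libraries: in the tumour-like class clusters 8 and 2 (261 and 252 cells) under the wild type label and clusters 2 and 5 (402 and 391) under the knockout label, and in the monocyte/macrophage-like class clusters 1 and 15 (271 and 235) against clusters 3 and 1 (474 and 401). The largest dendritic-like cluster was 17 (136 of 334 cells) and then 11 (221 of 526). Over all tumour-like cells the early gene share was 0.433% and 0.440%, yet it was lower under the knockout label in each of the 4 clusters with 20 cells a library. Counting each gene in each cluster with at least 30 UMIs, immediate early members were lower under the knockout label in 63 of 75 pairs in tumour-like cells (84.0%), 60 of 77 in monocyte/macrophage-like cells (77.9%) and 42 of 56 in dendritic-like cells (75%). The same share over all genes was 52.0%, 50.7% and 52.2%. In T cell-like clusters it was 50 of 105 (47.6%, all genes 53.6%) and in the single NK cell-like cluster 6 of 18 (33.3%, all genes 45.9%). Heat shock members were lower in 49 of 60 pairs in T cell-like clusters (81.7%), 26 of 34 in tumour-like (76.5%), 7 of 10 in NK cell-like (70.0%), 28 of 46 in monocyte/macrophage-like (60.9%) and 18 of 30 in dendritic-like clusters (60%). Genes of 1 cluster share its cells and library, so these pairs are not independent of each other.

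Fos shows the pattern in tumour-like cells, where the class values were 958 and 903 CPM but each cluster was lower under the knockout label, 1124 and 828 in cluster 2, 2261 and 1374 in cluster 5, 826 and 759.6 in cluster 8 and 719.5 and 473 in cluster 19. Jun, higher over the class, was higher in clusters 2 (975 and 1053), 8 (688 and 832) and 19 (545 and 576) and lower in cluster 5 (2221 and 1779). Egr1 was lower in all 4. In monocyte/macrophage-like cells Ier3 was higher over the class, and in clusters 3 (658 and 575), 15 (118 and 83.2) and 20 (563 and 340.0) it was lower, with cluster 1 (83.1 and 148) the exception among the clusters with 30 UMIs. Giving each cluster the same weight in the 2 libraries, its log2 ratio was -0.15 in place of 0.66, and with only Y-linked host cells it was 0.91. Klf4 was higher over that class (129 and 148) and lower in each of 4 clusters. For Klf2 in dendritic-like cells the class ratio of -0.82 came with a lower value in cluster 17 (239 and 126) and higher values in clusters 10 (71.4 and 94.7) and 11 (34.2 and 44.1). Fosb, by contrast, was lower in each of 3 dendritic-like, 4 monocyte/macrophage-like and 4 tumour-like clusters, although its class value in tumour-like cells was higher (129 and 146).

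**Figure D5:**
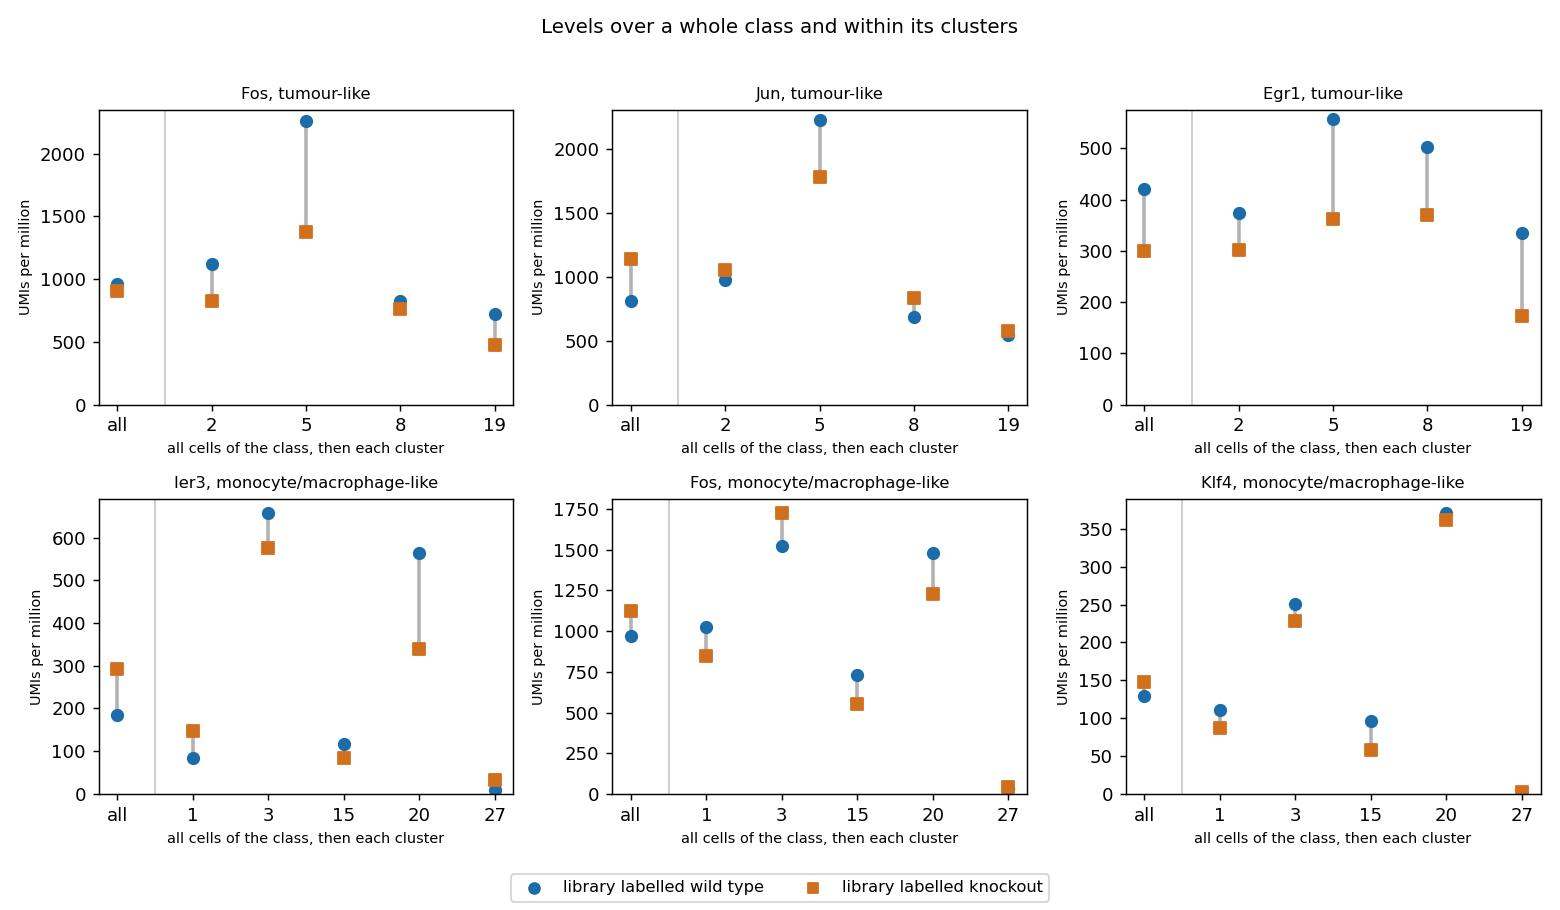
CPM (vertical axis, from 0) over all cells of a class and in each of its clusters (horizontal axis) for 3 genes in tumour-like and 3 in monocyte/macrophage-like cells, with 1 point a library. Ier3 in monocyte/macrophage-like cells is at 185 and 292 over the class, and the order of the libraries turns in clusters 3, 15 and 20.

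Inside the library labelled knockout, host cells with Xist and no Y-linked UMI were set against Y-linked cells, those that had Y-linked but not Xist UMIs, which went through the same preparation in 1 library. Cells with both or neither kind were left out, among them 91 NK cell-like and 163 monocyte/macrophage-like cells with neither. The groups differed in depth. Median UMIs in Y-linked and then Xist cells were 5623 and 6775 (NK cell-like), 8632 and 8821.5 (T cell-like), 14874 and 12013 (dendritic-like) and 15601 and 13669 (monocyte/macrophage-like). In NK cell-like cells (469 with Xist, 76 Y-linked) 5 of 15 immediate early members were past 1.5-fold lower in cells with Xist and 3 of 10 heat shock members past it higher, where 13.5% of all genes were past it either way. Nr4a1 was at 87.8 CPM with Xist and 187 with Y-linked UMIs (log2 ratio -1.09), Dusp1 at 147 and 294 (-1.002), Nr4a2 at 302 and 499 (-0.72), Klf2 at 499.8 and 817 (-0.71) and Fos at 279 and 425 (-0.61). The 3 heat shock genes were Hspa1a (0.97, 0.007 to 2.13), Hspa1b (0.63, -0.11 to 1.46) and Hspd1 (0.62, 0.21 to 1.06). They rested on only 9, 16 and 51 UMIs in the Y-linked cells. In dendritic-like cells (412 and 63) 3 of 10 heat shock members were lower with Xist, Hsph1 (-1.08), Dnajb1 (-0.80) and Hspa1a (-0.60), and of 18 immediate early members Egr3 was lower (-2.54) and Fosl2 higher (0.79), with 13.1% of all genes past 1.5-fold. In T cell-like cells (1074 and 285) the 2 members past it were Egr3 (0.79) and Nr4a2 (-0.59) of 29 read (5.25% of all genes). Egr3 rested there on 15 UMIs in Y-linked cells, with an interval of -0.005 to 1.67. In monocyte/macrophage-like cells (782 and 179) the members past it were Egr1 (0.64) and Hspa1b (0.95) of 28 (9.36%). The sex of the host and any further difference between the animals cannot be told apart here. With only Y-linked host cells in both libraries, and all tumour-like cells kept, 10 of 86 immediate early pairs were called higher and 4 lower between the libraries. Of 47 heat shock pairs 0 were called higher and 6 lower. The 19 and 9 tumour-like pairs among these held no call, so every call came from host cells. In the same cells, tumour-like ones included, 7.07% of all gene and class pairs were called higher and 8.96% lower. For the tumour-like part of that background the shares were 9.95% and 7.43%.

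Other genes of the same pathways were read in the 5 classes from lists made beside the members. Of the other heat shock and co-chaperone genes, such as Hspa4, Bag3 and the Cct subunits, 115 pairs of gene and class could be read, 26 above 0, with 1 called higher and 4 lower. The largest differences were Cryab in monocyte/macrophage-like cells (1.03) and Cacybp in NK cell-like cells (-0.74). Of the ER stress genes, chaperones and factors of the secretory pathway, 29 of 67 pairs were above 0, 2 were called higher and 1 lower, led by Ddit3 in dendritic-like cells (0.69) and Trib3 in tumour-like cells (-0.68). The other early response genes had 76 of 111 pairs above 0, 11 called higher and 6 lower, with Cebpd at 16.6 and 41.1 CPM (1.31) and Sgk1 at 88.5 and 34.8 (-1.35), both in tumour-like cells. The MAP kinase feedback genes had 26 of 42 above 0, 8 higher and 3 lower, with Spry1 in T cell-like cells (1.01) and Dusp4 in tumour-like cells (-1.18). The upstream factors and kinases, including Srf and Creb1, had 1 pair called higher and none lower of 51, led by Elk3 in tumour-like cells (0.78) and Mapk14 in dendritic-like cells (-0.58). Among early cytokine genes 5 of 26 pairs were called higher and 7 lower, with Cxcl1 in monocyte/macrophage-like cells (-3.02) and Cxcl2 in tumour-like cells (-2.25) the farthest, and among metallothionein and glucocorticoid response genes 3 of 29 were higher and 8 lower, with Fkbp5 in monocyte/macrophage-like cells at -1.36. Over all genes 22671 of 47492 pairs were above 0, with 3300 called higher and 2774 lower, and no list was tested against them.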

How the data were processed

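The deposited matrices hold raw UMI counts per gene and barcode, made by the authors on a combined human and mouse (mm10) reference. Per the file headers the counter was Cell Ranger 7.1.0. The submitters' processing notes also name Seurat 5.0.2 without its role.

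Only mouse genes were used. Cells needed 500 genes and at most 10% mitochondrial UMIs, and the highest Scrublet scores (0.8% per 1000 cells, 77 and 346 cells) were removed as doublets. Both libraries were clustered together on 2000 variable genes without the 32 members, with 30 components, 15 neighbours and Leiden resolution 1. Clusters were named from at least 3 markers, and each cell needed 2 markers of its class. Cluster 29 was left unnamed by a list of basophil markers made after the clusters were seen. UMIs were summed by class and library, and ratios have exact conditional intervals, with code tested on simulated data. A gene was read at 100 UMIs in a class.

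All 32 members are named, with full values from 50 CPM in a compared class. Between libraries the 3 largest and 3 smallest ratios of each class are named, and the 2 largest differences of each other list. The members, lists and markers were chosen with earlier results of these data known. Other genes were named after their values were seen. For shares of cells, each cell was thinned to 2000 UMIs, with exact binomial intervals. The 12 alternatives changed the doublet, cell and count filters, the scaling, the class call, the clustering, the host cells and the weights. Promoter windows came from RefSeq (GRCm38.p6). Tools were scanpy 1.11.5, leidenalg 0.10.2, igraph 0.11.9 and scikit-learn 1.9.0 for clustering, and scipy 1.17.1, numpy 2.4.6, pandas 2.3.3 and matplotlib 3.10.9 in Python 3.11.15 for the rest.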

Additional observations from a re-analysis of the deposited data

Results flagged for a closer look

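Egr2 went in opposite directions between classes under the same comparison of the libraries. Its log2 ratio, knockout label over wild type label, was 0.74 in T cell-like cells, -0.64 in dendritic-like cells and -0.59 in monocyte/macrophage-like cells, each past 1.5-fold. The T cell-like value rested on 26 and 112 UMIs (interval 0.11 to 1.41). With only Y-linked host cells the dendritic-like value was near 0, at -0.07. The T cell-like value was then 0.76, both from under 100 UMIs, and the monocyte/macrophage-like value was -0.77. The difference between the classes was not tested, since each label has 1 library.

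The matrices also list human genes, which no comparison used. The human genes with a member's symbol held 37 UMIs in the library labelled wild type and 20 in the library labelled knockout, above the limit of 3 that a count of 0 allows, out of 10781 and 20272 UMIs of all human genes.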

How the results depend on the processing

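No paired analysis was possible because each label has 1 library, so the groups share fewer than 2 replicate numbers. Of 355 values of named ratios under 12 alternatives, 312 moved by less than their counting interval, 42 moved by more and 1, of a ratio past 1.5-fold, changed sign, Ier3 in monocyte/macrophage-like cells, from 0.66 to -0.15 with clusters weighted alike. Some of the 312 could not move and say nothing of stability. These were all values with 30 UMIs in place of 100, which changes only which genes are read. Tumour-like values were also fixed with only Y-linked host cells, since all tumour-like cells were kept. The NK cell-like values, from a single cluster, were fixed with clusters weighted alike. Of 237 values of ratios within 1.5-fold, 6 had the other sign and are among the 42: with clusters weighted alike Btg2 (0.38 to -0.37) and Jun (0.49 to -0.02) in tumour-like cells and Nr4a2 (0.40 to -0.16) and Fosl2 (0.32 to -0.03) in monocyte/macrophage-like cells, Fosl2 in dendritic-like cells with only Y-linked host cells (0.28 to -0.43), and Hspa1a in tumour-like cells with the marker gate alone (0.47 to -0.40). Heat shock pairs called higher were 1, and 2 with doublets kept, a looser cell filter, resolution 0.5 or the members among the variable genes, and 0 with only Y-linked host cells or with a mean over cells. Heat shock pairs called lower were 2, and 4 with the marker gate alone or a mean over cells, 6 with only Y-linked host cells and 0 with clusters weighted alike. Immediate early pairs called higher were 2, and 5 with the marker gate alone, 10 with only Y-linked host cells, and 1 with a mean over cells or with clusters weighted alike. Immediate early pairs called lower were 10, and 4 with only Y-linked host cells. The median over classes for immediate early genes was 0.07, and -0.18 with clusters weighted alike. The cause of these moves was not tested. With 1 library a label, all intervals cover counting error only, and genes under 100 UMIs in a class could not be read.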
